A study of Mus musculus with 40 samples.

Results

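A set of 10 genes of the blood vessel wall and its growth signals were followed in the left ventricle, chosen by name: the endothelial markers Pecam1, Cdh5 and Vwf, the VEGF receptors Kdr and Flt1, the ligand Vegfa, the angiopoietin receptors Tek and Tie1, and the ligands Angpt1 and Angpt2. All 10 of the 10 were found among the 22676 genes of the table, and all 10 passed the filter on low values that left 16395 genes for testing. A gene passed when 5 or more libraries reached a value of 10. Bulk RNA was measured in 40 libraries from FVB/NJ mice, 10 in each of 4 conditions and 5 of each sex within a condition.

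The 4 conditions combined 2 genotypes with 2 operations. By design, mice labelled ONOFF overexpressed a dominant negative form of OGA, dnOGA, in the heart for a limited period. OGA removes the sugar O-GlcNAc from proteins. Controls are labelled Con. By the labels' account both genotypes ate doxycycline food for 2 weeks, so the controls had the drug as well, and then returned to standard chow for 2 weeks. Surgery followed, either transverse aortic constriction (TAC), a band that makes the left ventricle pump against a raised pressure, or a sham operation, and hearts were taken after 9 weeks. The promoter that drives the transgene, the number of founder lines, the alleles carried by Con mice and the age of the mice are not given in the sources used here. Nothing in the labels states that each library is a different mouse, so p-values describe the spread between libraries.

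Endothelial cells line every vessel and, with cardiomyocytes, fibroblasts and the mural cells that wrap small vessels, make up most of the ventricle wall. VEGF-A, which hypoxic muscle releases, acts through the receptor VEGFR2 (Kdr), while VEGFR1 (Flt1) binds the same ligand tightly and limits its action. Angiopoietin-1, made by cells around the vessel, activates the endothelial receptor Tie2 (Tek) and keeps vessels stable, whereas angiopoietin-2, stored and released by endothelial cells, often opposes it.

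The main result across the 10 genes concerned Angpt1. Its values fell after TAC in both genotypes, 1.95-fold in Con and 2.24-fold in ONOFF ventricles, and after TAC they were 1.76-fold lower in ONOFF than in Con. The 7 genes that mark the endothelial cell itself, Pecam1, Cdh5, Kdr, Flt1, Tek, Tie1 and Vwf, gave no call in any of these comparisons, and neither did Vegfa or Angpt2. A gene was called when limma's moderated test gave an adjusted p below 0.05 over all genes tested. In bulk tissue, fewer cells of a type and less RNA per cell cannot be told apart.

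Values are the authors' normalized counts, and sequencing depth before normalization is unknown. Library totals ranged from 35176200 to 47654000. Oga, the gene whose dominant negative form was induced, had a median of 5927 (3019 to 8294) in ONOFF Sham against 3182 (2644 to 3507) in Con Sham. After TAC the median was 3537 (3058 to 5580) in ONOFF against 3073 (2195 to 3386) in Con. The ranges overlap within each operation, so Oga alone does not settle the genotype of each library. Its medians were thus higher in ONOFF when hearts were taken, after the return to standard chow. Whether the transgene was still expressed then was not tested. Nppa, the atrial natriuretic peptide gene induced by overload, had medians of 9582 in Con Sham, 43874 in Con TAC, 10138 in ONOFF Sham and 156483 in ONOFF TAC. In 3 Con Sham libraries (replicates 3 and 5 of the females and replicate 4 of the males), the number of genes at 0 was 5782 to 6920, while the other 37 had 2635 to 4594. In Con TAC F replicates 2 and 3, Xist, the RNA of the inactive X chromosome, was 6.72 to 51.7, within the range of 2.61 to 87.7 in males and below the 1123 to 3274 of the other 18 female libraries. These 5 libraries stand apart, the 3 by their zeros and the 2 by their Xist. Calls lost without the 3, without the 2 or without all 5 are therefore named as such beside the gene. Xist alone does not settle the sex of the 2 libraries, and no other sex-linked gene is given here.

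**Figure D1:**
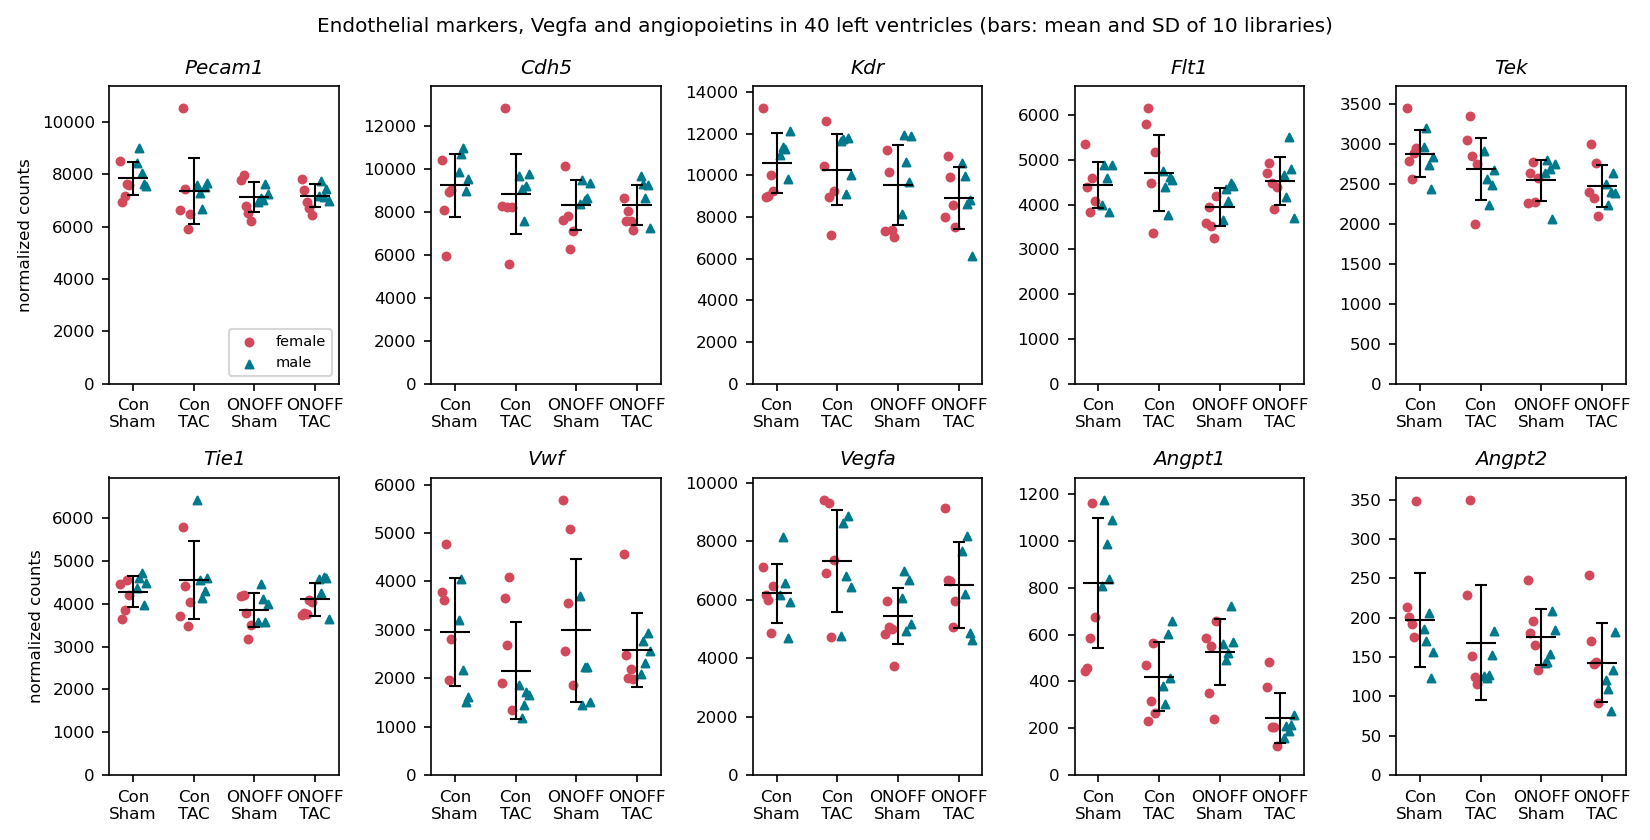
Normalized counts of the 10 genes in each of the 40 libraries, by condition, on a separate linear axis from 0 for each gene; circles are female and triangles male libraries, and bars show the mean and SD of 10 libraries. Angpt1 has means of 822 in Con Sham, 421 in Con TAC, 525 in ONOFF Sham and 242 in ONOFF TAC. With both sexes together, the compared conditions overlap in all 10 genes.

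Angpt1 (ENSMUSG00000022309) in Con Sham females measured 443, 458, 584, 1160.4 and 675 normalized counts, and in Con Sham males 807, 1177, 986, 838 and 1088. After TAC the Con females measured 472, 230.3, 316, 564 and 265, and the Con males 382, 305, 601, 414 and 656. Every Con TAC male lay below every Con sham male, while the females overlapped. Con TAC F replicate 2, one of the libraries poor in Xist, had the lowest value of its group. The condition means were 822 ± 277 in Con Sham and 421 ± 148 in Con TAC (SD, n = 10 each), a log2 change of -0.96 with a 95% confidence interval of -1.39 to -0.54 and an adjusted p of 0.00318 by limma. All 10 of the Con TAC libraries lay below the sham mean of their sex. Of the 10 genes 1 was called, where 5.78% of all genes tested were called in either direction and 2.62% were called lower. The call was lost without all 5 of the libraries that stand apart, at log2 -0.86 with an adjusted p of 0.0516 by limma; without the 3 libraries with many zeros it held at -0.99 (adjusted p = 0.0131, limma), and without the 2 poor in Xist at -0.84 (adjusted p = 0.028, limma).

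In ONOFF ventricles, Angpt1 measured 583, 352, 553, 239 and 657 in sham females and 558, 493, 522, 722 and 569 in sham males. After TAC the ONOFF females measured 374, 481, 206, 205 and 126, and the ONOFF males 157, 208, 189.7, 215 and 257. Again the males separated completely, with the highest TAC male well below the lowest sham male, and the females overlapped through replicates 1 and 2. The mean went from 525 ± 140.0 to 242 ± 107 (SD, n = 10 each), a log2 change of -1.16 (95% confidence interval -1.58 to -0.74; adjusted p = 5.19e-05, limma). Of the TAC libraries, 9 of 10 lay below the sham mean of their sex. Angpt1 was again the 1 gene called of the 10, where 21.2% of all genes were called and 10.6% were called lower.

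Between the genotypes, Angpt1 was lower in ONOFF after TAC by a log2 difference of -0.82 (95% confidence interval -1.24 to -0.40; adjusted p = 0.00995, limma), with 8 of 10 ONOFF TAC libraries below the Con TAC mean of their sex. This was the 1 call among the 10 genes, where 7.97% of all genes were called and 3.82% were called lower. In sham ventricles the difference was -0.62 (95% confidence interval -1.04 to -0.20) and was not called (adjusted p = 0.316, limma). Before adjustment its p was 0.00486 by limma. None of the 10 genes was called there, where 0.14% of all genes were, and 2 of the 10 had an unadjusted p below 0.05 by limma, against 8.63% of all genes. The effect of TAC on Angpt1 did not differ detectably between the genotypes: the difference of the log2 changes was -0.20, with a 95% confidence interval of -0.79 to 0.40 (adjusted p = 0.86, limma). None of the 10 genes was called for that difference, and none had an unadjusted p below 0.05, against 0.445% and 11.4% of all genes. The 2 comparisons between genotypes and the 2 of surgery share their libraries, so they are not independent of each other.

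In males all 4 comparisons of Angpt1 were without overlap, with the ONOFF or TAC group lower, while in females all 4 overlapped. Among all genes tested, the share lower without overlap in males was 1.5% for TAC in Con, 6.73% for TAC in ONOFF, 0.622% for genotype in sham and 2.66% for genotype in TAC mice. In females these shares were 0.988%, 4.39%, 0.36% and 0.445%. The log2 change in males minus that in females was -0.26 for TAC in Con (95% confidence interval -1.10 to 0.58) and -0.64 for TAC in ONOFF (-1.48 to 0.20). The genotype difference gave -0.30 (-1.14 to 0.55) in sham and -0.67 (-1.51 to 0.17) in TAC mice. None of these sex differences was called for any of the 10 genes, and none of the 10 had an unadjusted p below 0.05 by limma. Over all genes 0% were called for each sex difference, with 540, 862, 512 and 656 genes at an unadjusted p below 0.05.

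A predicted antisense gene, Gm17473, overlaps an exon of Angpt1 on the opposite strand in the GENCODE M21 annotation. Its own median was 18.6 normalized counts in Con Sham, 7.98 in Con TAC, 10.4 in ONOFF Sham and 4.01 in ONOFF TAC. The libraries were stranded, per the labels, but whether the quantification used the strand is not given in the sources used here.

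Angpt2, whose product competes with angiopoietin-1 at Tie2, ranged from 124 to 349 in Con Sham with a median of 189, and from 116 to 350.1 in Con TAC with a median of 139. In ONOFF it ranged from 133 to 248 in sham (median 173) and from 81.1 to 255 in TAC ventricles (median 137). Groups overlapped in every comparison. The log2 change with TAC was -0.27 in Con (95% confidence interval -0.63 to 0.09; adjusted p = 0.43, limma) and -0.34 in ONOFF (-0.70 to 0.02; adjusted p = 0.181, limma), and neither passed. Weighting libraries by their quality moved the second past the threshold (adjusted p = 0.027, limma). Angpt2 lies inside Mcph1, on the other strand and with no shared exon, in the same annotation; Mcph1 had a median of 282 in Con Sham, 278 in Con TAC and 262 in both ONOFF conditions.

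The ratio of Angpt2 to Angpt1 follows from the values of both genes and is given as a description. On the log2 scale and relative to the Con Sham mean, it was 0.70 ± 0.80 in Con TAC, 0.48 ± 0.51 in ONOFF Sham and 1.30 ± 0.37 in ONOFF TAC (SD, n = 10 each), with an SD of 0.76 in Con Sham itself. Of the ONOFF TAC libraries, 8 exceeded the highest Con Sham ratio, as did 1 in Con TAC and 1 in ONOFF Sham.

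Tek, the gene of the Tie2 receptor on which both ligands act, ranged from 2443 to 3453 (median 2866) in Con Sham and from 2005 to 3356 (2713) in Con TAC. In ONOFF it ranged from 2067 to 2805 (2637) in sham and from 2096 to 3004 (2397) in TAC ventricles. All these ranges overlap. The lowest unadjusted p for Tek was 0.0286, for genotype in sham mice, with a log2 difference of -0.18 (95% confidence interval -0.34 to -0.02; adjusted p = 0.496, limma), and all 10 ONOFF sham libraries lay below the Con sham mean of their sex. After TAC the genotype difference was -0.11 (-0.27 to 0.05; adjusted p = 0.461, limma).

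Tie1, a receptor that pairs with Tie2, had medians of 4419 in Con Sham (3655 to 4718) and 4365 in Con TAC (3489 to 6441). In ONOFF the medians were 3891 in sham (3172 to 4463) and 4068 in TAC ventricles (3640.5 to 4623). The TAC changes were 0.07 in Con (95% confidence interval -0.09 to 0.23) and 0.09 in ONOFF (-0.07 to 0.25) on the log2 scale. All 10 ONOFF TAC libraries lay below the Con TAC mean of their sex, but the difference of -0.13 (-0.29 to 0.03) was not called (adjusted p = 0.384, limma), and Con TAC M replicate 1, at 6441, was the highest of all 40 libraries.

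Vegfa, the main VEGF ligand, ranged from 4695 to 8145 in Con Sham (median 6171) and from 4708 to 9425 in Con TAC (7121). The range in ONOFF was 3743 to 6984 in sham (5120.3) and 4632 to 9139 in TAC ventricles (6422). TAC gave log2 changes of 0.21 in Con (95% confidence interval -0.05 to 0.48; adjusted p = 0.383, limma) and 0.24 in ONOFF (-0.02 to 0.51; adjusted p = 0.197, limma), with 8 of 10 TAC libraries above the sham mean of their sex in each. Neither was called, although the ONOFF change passed with library weights (adjusted p = 0.0369, limma).

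Kdr, the receptor through which VEGF-A drives endothelial growth, ranged from 8972 to 13236 in Con Sham (median 10501), 7145 to 12622 in Con TAC (10227), 7029 to 11963 in ONOFF Sham (9917) and 6104 to 10947 in ONOFF TAC (8713). The genotype difference after TAC was -0.21 on the log2 scale (95% confidence interval -0.42 to 0.01; adjusted p = 0.263, limma), with 8 of 10 libraries below the Con TAC mean of their sex. TAC itself gave -0.05 (-0.27 to 0.16) in Con and -0.09 (-0.31 to 0.12) in ONOFF.

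Flt1, the decoy receptor, ranged from 3826 to 5355 in Con Sham (median 4491) and from 3359.6 to 6158 in Con TAC (4587). In ONOFF the range was 3244 to 4482 in sham (4008) and 3689 to 5514 in TAC ventricles (4574). The ONOFF change with TAC was 0.20 on the log2 scale (95% confidence interval 0.02 to 0.37; adjusted p = 0.1, limma), with 8 of 10 libraries above the sham mean of their sex. It passed with library weights (adjusted p = 0.0243, limma), when only the compared groups were fitted (adjusted p = 0.0417, limma) and without ONOFF TAC M replicate 5 (adjusted p = 0.0462, limma), which had the lowest Flt1 and Kdr values of its group.

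Pecam1, the adhesion molecule CD31 at endothelial junctions, ranged from 6936 to 9009 in Con Sham (median 7625) and from 5898 to 10539.8 in Con TAC (7358). In ONOFF the range was 6226 to 7994 in sham (7074) and 6451 to 7843 in TAC ventricles (7160.1). The TAC change in Con was -0.10 (95% confidence interval -0.24 to 0.04; adjusted p = 0.444, limma), though 9 of 10 TAC libraries lay below the sham mean of their sex. The exception was Con TAC F replicate 2, which at 10539.8 was the highest of all. Without the 2 libraries poor in Xist, the change was -0.20 (adjusted p = 0.0397, limma) and was called, and without all 5 that stand apart it was -0.22 (adjusted p = 0.0411, limma).

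Cdh5, the VE-cadherin of endothelial junctions, ranged from 5943 to 11001 in Con Sham (median 9291), 5556 to 12843 in Con TAC (8673), 6259 to 10146 in ONOFF Sham (8478) and 7172 to 9666 in ONOFF TAC (8355). The log2 changes with TAC were -0.08 in Con (95% confidence interval -0.28 to 0.13) and 0.001 in ONOFF (-0.20 to 0.20). The highest library was again Con TAC F replicate 2, which was also the highest of its group for Kdr, Flt1, Tek, Tie1 and Angpt2.

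Vwf, the clotting glycoprotein von Willebrand factor, made by endothelial cells and megakaryocytes, was the most variable marker. It ranged from 1515 to 4761 in Con Sham (median 3015), 1171 to 4085 in Con TAC (1789), 1453 to 5689.6 in ONOFF Sham (2398) and 1977 to 4567 in ONOFF TAC (2396). The change with TAC in Con was -0.48 (95% confidence interval -0.93 to -0.02; adjusted p = 0.221, limma), and the genotype difference after TAC was 0.34 (-0.11 to 0.79; adjusted p = 0.423, limma). In males, every ONOFF TAC library, from 2089 to 2936, lay above every Con TAC library, from 1171 to 1863, as was so for 2.99% of all genes. Markers of platelets and megakaryocytes, of which 6 of 7 could be tested, summed to 327 to 806 in Con Sham (median 411), 312 to 1184 in Con TAC (623), 302 to 1384 in ONOFF Sham (408) and 328 to 539 in ONOFF TAC (419). Ppbp and Treml1 of that list were lower in ONOFF after TAC (log2 -1.72 and -1.71; adjusted p = 0.0101 and 0.0316, limma), the second call being lost in 8 of 40 omissions of 1 library. It was also lost without the 2 libraries poor in Xist and without all 5 that stand apart (log2 -1.45 in both), and with a pseudocount of 10 it was called at -0.74. The part of these markers in the Vwf values was not tested.

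**Figure D2:**
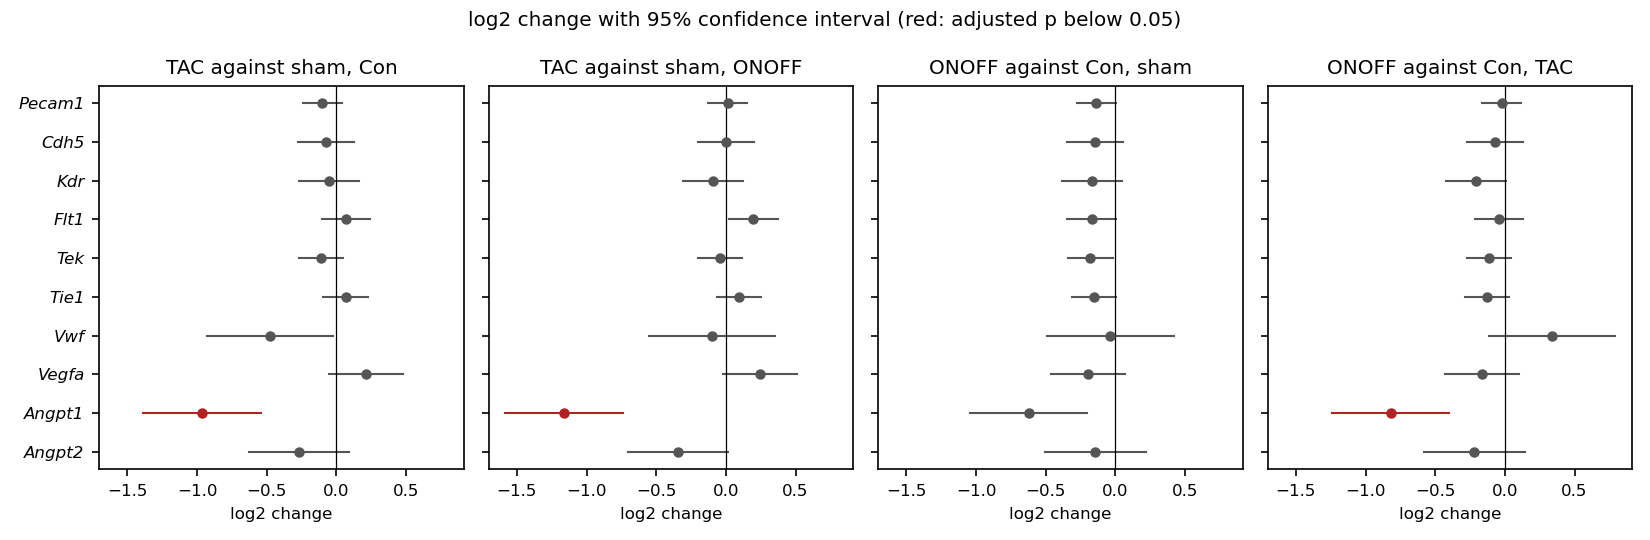
The log2 change of each of the 10 genes in the 4 comparisons, with 95% confidence intervals; red marks an adjusted p below 0.05 by limma over all 16395 genes. Only Angpt1 is red, in 3 of the 4 panels, and in the sham panel all 10 estimates lie below 0 with none called.

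Across the 10 genes, the median log2 change was -0.09 for TAC in Con, -0.02 for TAC in ONOFF, -0.16 for genotype in sham and -0.12 for genotype in TAC mice, beside medians over all genes of 0.02, 0.01, 0.01 and -0.0007. In sham ventricles the estimates of all 10 genes were negative in ONOFF, from -0.04 for Vwf to -0.62 for Angpt1. That of Vwf turned positive in 7 of 40 omissions of 1 library. Pecam1, Cdh5, Kdr, Flt1, Tek and Tie1 varied together among libraries, as given below, so the 10 signs are not separate observations. The share of all genes with a negative estimate is not given here. The 7 endothelial markers summed to 37102 to 49236 in Con Sham (median 41825), 31538 to 54989.5 in Con TAC (40305), 32523 to 42702 in ONOFF Sham (38425) and 32582 to 41261 in ONOFF TAC (39575), so the defining markers of the cell type were well above 0 in every library.

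The genes differed in how steady they were among libraries of the same group. The residual SD on the log2 scale was 0.15 for Pecam1, 0.175 to 0.246 for Tek, Tie1, Flt1, Cdh5 and Kdr, and 0.309 for Vegfa. It was 0.41 for Angpt2, 0.494 for Angpt1 and 0.521 for Vwf, against a median of 0.288 over all genes. Within groups the junction genes and the 4 receptors moved together. Deviations from the group means over 40 libraries correlated in each of the 15 pairs among Pecam1, Cdh5, Kdr, Flt1, Tek and Tie1, with Pearson's r from 0.49 to 0.80 (median 0.63) and Spearman's rho from 0.37 to 0.73. The pair of Pecam1 and Cdh5 had the highest r.

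Permutation within groups, 100000 times and two-sided, gave an adjusted p below 0.05 for Pearson's r in 13 of these 15 pairs and at most 0.0755 in the others, adjusted over all 45 pairs. The highest unadjusted permutation p among the 15 was 0.0319 for r and 0.0402 for rho. Without the 2 libraries farthest from the median of the first gene of a pair, r was 0.26 to 0.66. Leaving out the extremes of a gene narrows its range, which by itself tends to lower r. The fall therefore does not show how much of the relation rests on those libraries. Vwf gave r from -0.25 to 0.35 with the 6, Vegfa 0.002 to 0.42 and Angpt1 -0.23 to -0.04, with no pair passing by permutation, and Angpt2 gave 0.17 to 0.63, with its pair with Pecam1 passing (adjusted p = 0.00385, permutation). By Spearman's rho its pair with Cdh5 passed as well (rho = 0.46, adjusted p = 0.0224, permutation). All correlations share the libraries, and the amount of endothelial RNA and the normalization of each library enter every pair. Of all 45 pairs, 14 passed for Pearson's r by permutation. How often pairs of other genes reach such values was not tested. The block is therefore not shown to stand apart from genes at large.

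**Figure D3:**
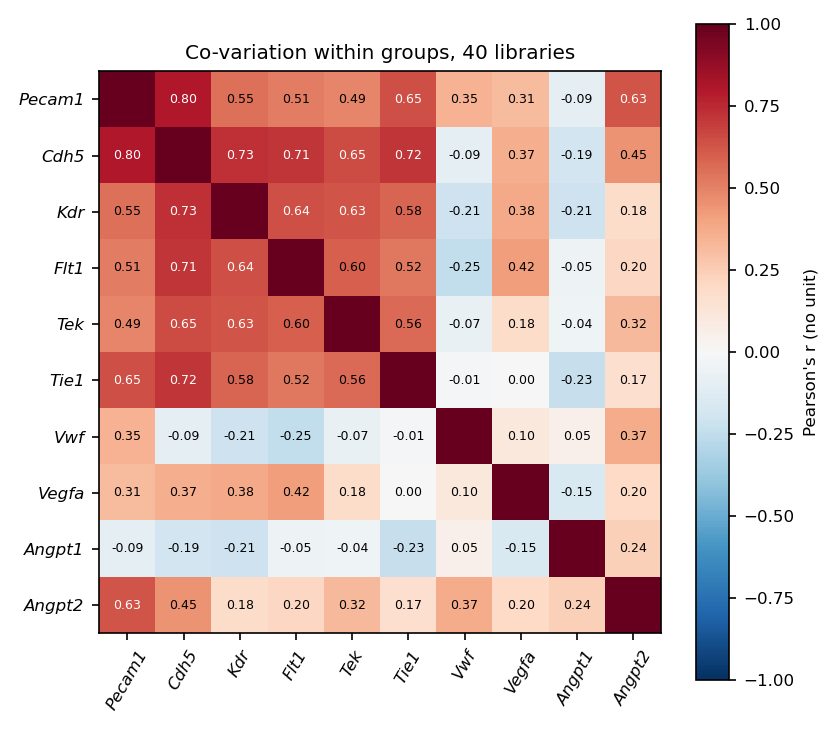
Pearson's r between the within-group deviations of each pair of the 10 genes over 40 libraries, on a colour scale from -1 to 1. The block of Pecam1, Cdh5, Kdr, Flt1, Tek and Tie1 holds values from 0.49 to 0.80, and Vwf, Vegfa and Angpt1 lie outside it.

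The 4 receptor genes in that block are shown with the 250 bases before their RefSeq start. Factors of the ETS family, which bind the core GGAA, are known regulators of endothelial genes. Whether they take part in the co-variation was not tested. Capitals mark GGAA on either strand (TTCC is the same core on the other strand), written 5′ to 3′ along the gene, with coordinates of the build GRCm38.p6: Kdr at chr5:75978456-75978705 on the minus strand, Flt1 at chr5:147726012-147726261 on the minus strand, Tek at chr4:94739039-94739288 on the plus strand and Tie1 at chr4:118489850-118490099 on the minus strand.
Kdr: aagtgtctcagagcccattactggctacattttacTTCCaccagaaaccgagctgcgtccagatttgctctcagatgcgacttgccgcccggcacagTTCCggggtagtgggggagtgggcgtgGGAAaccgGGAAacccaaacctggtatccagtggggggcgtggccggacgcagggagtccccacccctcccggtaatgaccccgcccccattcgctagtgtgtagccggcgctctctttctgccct
Flt1: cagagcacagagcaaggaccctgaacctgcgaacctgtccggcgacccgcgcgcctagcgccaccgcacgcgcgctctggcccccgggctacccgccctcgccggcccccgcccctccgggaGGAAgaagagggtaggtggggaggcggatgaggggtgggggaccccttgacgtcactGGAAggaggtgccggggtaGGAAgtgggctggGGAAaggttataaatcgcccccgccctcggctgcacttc
Tek: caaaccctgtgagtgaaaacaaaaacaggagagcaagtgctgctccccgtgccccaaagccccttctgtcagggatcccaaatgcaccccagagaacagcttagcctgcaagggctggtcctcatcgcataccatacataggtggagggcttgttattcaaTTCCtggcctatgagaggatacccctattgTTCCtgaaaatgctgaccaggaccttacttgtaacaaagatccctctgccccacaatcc
Tie1: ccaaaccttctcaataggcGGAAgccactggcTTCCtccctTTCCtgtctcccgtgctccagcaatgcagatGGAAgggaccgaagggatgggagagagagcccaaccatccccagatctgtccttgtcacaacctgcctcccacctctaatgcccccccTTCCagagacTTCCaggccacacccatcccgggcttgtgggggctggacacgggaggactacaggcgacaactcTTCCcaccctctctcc
Kdr and Flt1 each held 4 matches, a number that 33.4% of 32851 RefSeq promoters reach. Tek held 2, which 76.8% reach, and Tie1 held 7, which 3.82% reach. The median promoter held 3, and 93.4% held at least 1. A match is a string of letters and not a shown binding site. RefSeq promoters were matched for 5 of the 10 genes, these 4 and Vegfa; Pecam1, Cdh5, Vwf, Angpt1 and Angpt2 are named only.

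The genes whose within-group deviations were most like those of each of the 10, over 40 libraries, were as follows. For Pecam1 they were Nos3, Ehd2 and Eng (r = 0.81, 0.81 and 0.80), and for Cdh5 Mmrn2, Jcad and Lrrc8c (0.88, 0.88 and 0.87). Kdr was most like Ets1, Lamb1 and Nrp2 (0.86, 0.85 and 0.85) and Flt1 most like Man2a1, Card10 and Helz2 (0.83, 0.81 and 0.80). Tek was most like App, Efnb2 and Adgrf5 (0.85, 0.84 and 0.83), and Tie1 most like Fam43a, Prkch and Fmnl3 (0.84, 0.79 and 0.78). Vwf had Rarres2, Anpep and Cd82 (0.82, 0.78 and 0.71) and Vegfa had Mast2, Gpr157 and Pom121 (0.78, 0.78 and 0.76). Angpt1 was most like Corin, Rbfox1 and Lpl (0.75, 0.72 and 0.68), and Angpt2 most like Trib3, Fgd5 and Pfkfb3 (0.75, 0.63 and 0.63).

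Around the 10, the other VEGF ligands and receptors gave 1 lower call of 7 for TAC in Con, 2 lower calls for TAC in ONOFF, none for genotype in sham and 1 higher call for genotype in TAC mice. Over all genes tested, 5.78% were called for TAC in Con (2.62% lower) and 21.2% for TAC in ONOFF (10.6% lower). For genotype the shares were 0.14% in sham and 7.97% in TAC mice. The counts of this and the following lists stand beside these shares. Pgf, the placental growth factor that binds Flt1, had medians of 199 in Con Sham, 132 in Con TAC, 206 in ONOFF Sham and 118 in ONOFF TAC. It fell by a log2 change of 0.94 with TAC in ONOFF (adjusted p = 0.00015, limma, 10 of 10 libraries lower). Its fall of 0.59 in Con (adjusted p = 0.0452, limma) was lost in 16 of 40 omissions of 1 library, with adjusted p up to 0.0951. It was lost too without a filter on low values, with quantile normalization, with the replicate block, and without the 3 libraries with many zeros, the 2 poor in Xist and all 5. Vegfb, which also binds Flt1, fell by 0.23 with TAC in ONOFF (adjusted p = 0.0145, limma). Vegfd, a ligand of the lymphatic VEGF receptor, was higher by 0.52 in ONOFF TAC than in Con TAC (adjusted p = 0.0448, limma), a call lost in 15 of 40 omissions, with adjusted p up to 0.116. That call was lost too without a filter, with quantile normalization, with an additive sex term, with the replicate block and without the 2 libraries poor in Xist.

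Of 8 further genes of the angiopoietin and Tie pathway, none was called for TAC in Con or for genotype in sham, 2 rose with TAC in ONOFF and 1 was higher in ONOFF TAC than in Con TAC. Of all genes, 21.2% were called for TAC in ONOFF and 7.97% for genotype in TAC mice. Svep1, a large matrix protein that binds Tie1, ranged from 476 to 975 in Con Sham, 509 to 1336 in Con TAC, 522 to 1093 in ONOFF Sham and 1219 to 2996 in ONOFF TAC. Every ONOFF TAC library lay above every ONOFF sham library, as was so for 1.48% of all genes. The rise with TAC in ONOFF was 2.82-fold (log2 1.50, adjusted p = 1.05e-07, limma), and the genotype difference after TAC was 2.22-fold (log2 1.15, adjusted p = 0.000108, limma). Tnip2, an inhibitor of NF-kappaB signalling that Tie2 binds, rose by 0.36 with TAC in ONOFF (adjusted p = 0.0027, limma).

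Of 18 Notch and sprouting genes, 1 fell with TAC in Con, 1 rose and 2 fell with TAC in ONOFF, none was called in sham and 1 was lower in ONOFF TAC than in Con TAC. The shares of all genes called were 5.78% for TAC in Con, 21.2% for TAC in ONOFF and 7.97% for genotype in TAC mice. Hey2, a Notch target, fell by 0.47 in Con (adjusted p = 0.012, limma) and by 0.50 in ONOFF (adjusted p = 0.00157, limma); the Con call was lost without all 5 libraries that stand apart and when only the compared groups were fitted. Unc5b, a netrin receptor of tip cells, rose by 0.56 in ONOFF (adjusted p = 0.00013, limma). Apln, the apelin peptide of sprouting endothelium, had medians of 752 in Con Sham, 682 in Con TAC, 695 in ONOFF Sham and 359 in ONOFF TAC. It fell by 1.05 with TAC in ONOFF (adjusted p = 0.000316, limma) and was lower by a log2 difference of -0.90 in ONOFF than in Con after TAC (adjusted p = 0.00593, limma).

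**Figure D4:**
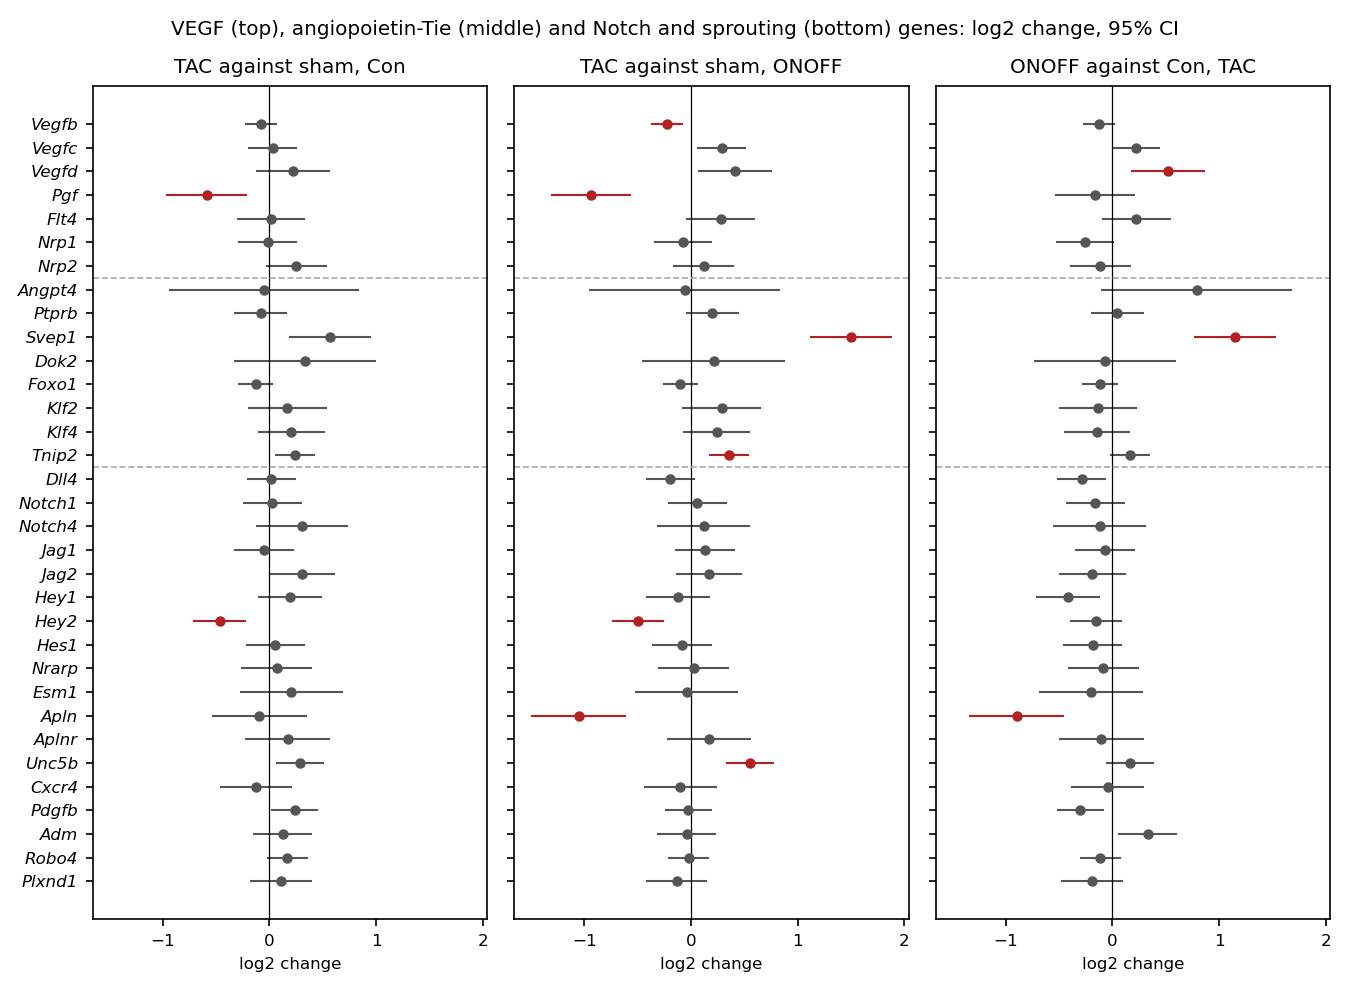
The log2 change of each of 7 VEGF genes, 8 angiopoietin and Tie genes and 18 Notch and sprouting genes for TAC in Con, TAC in ONOFF and genotype in TAC mice, with 95% confidence intervals; red marks an adjusted p below 0.05 by limma. Svep1 (1.50) and Apln (-1.05) have the largest changes with TAC in ONOFF among these genes.

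Among 29 other pan-endothelial genes, none was called for TAC in Con or genotype in sham, 2 rose with TAC in ONOFF and 2 were lower in ONOFF TAC than in Con TAC. These counts stand beside 21.2% of all genes called for TAC in ONOFF and 7.97% for genotype in TAC mice. Cd34, a surface sialomucin, rose by 0.22 (adjusted p = 0.0196, limma), and Podxl, a related sialomucin, by 0.25 (adjusted p = 0.0397, limma; lost in 10 of 40 omissions, without a filter, with TMM and with the library-name number as a random block). Sox7, an endothelial transcription factor, was lower by a log2 difference of -0.63 (adjusted p = 0.00687, limma), and Rasip1, needed for vessel lumens, by -0.31 (adjusted p = 0.0423, limma; lost in 12 of 40 omissions, without Con TAC F replicates 2 and 3, without all 5 libraries that stand apart, without a filter, with quantile normalization and with only the compared groups). The median log2 changes of the 29 were 0.07, 0.01, -0.07 and -0.06 in the order TAC in Con, TAC in ONOFF, genotype in sham and genotype in TAC.

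The next lists hold genes of particular vessel beds. For TAC in ONOFF 21.2% of all genes were called, for genotype in TAC mice 7.97% and for the interaction 0.445%. Of 11 capillary genes, 1 was called, Tcf15, a transcription factor of fatty acid uptake in heart capillaries, which was lower by -0.45 in ONOFF TAC than in Con TAC (adjusted p = 0.0111, limma; lost without the 2 libraries poor in Xist). Of 7 arterial genes, Fbln5, an elastic fibre protein, was called, higher by 0.33 with TAC in ONOFF (adjusted p = 0.0292, limma; lost in 9 of 40 omissions) and by 0.48 for genotype in TAC mice (adjusted p = 0.00485, limma). Of 10 venous and endocardial genes, Npr3, the natriuretic peptide clearance receptor of the endocardium, was called. It ranged from 634 to 1136 in Con Sham, 663 to 1819 in Con TAC, 696 to 1036 in ONOFF Sham and 1138 to 2332 in ONOFF TAC. The last 2 did not overlap, and 1.48% of all genes were higher without overlap in that comparison. The rise with TAC in ONOFF was 2.04-fold (log2 1.03, adjusted p = 4.62e-08, limma), and the difference after TAC was 1.70-fold (log2 0.77, adjusted p = 9.37e-05, limma). The TAC effect on Npr3 differed between genotypes by 0.85 (adjusted p = 0.0292, limma), a call lost in 4 of 40 omissions. Of 7 lymphatic genes, Pdpn rose with TAC in ONOFF (0.51, adjusted p = 0.00303, limma), and Reln and Pdpn were higher for genotype in TAC mice (1.16 and 0.40; adjusted p = 0.012 and 0.0429, limma), where the call of Pdpn was lost in 14 of 40 omissions, without a filter, with quantile normalization and without the 2 libraries poor in Xist. That of Reln was lost with library weights, at log2 0.71 (adjusted p = 0.0898, limma).

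Some markers of cardiomyocytes, fibroblasts and mural cells were called in each of the comparisons in which Angpt1 was called. Markers of the other cell types listed were not called in each of them. Over all genes tested, 5.78% were called for TAC in Con, 21.2% for TAC in ONOFF and 7.97% for genotype in TAC mice. Lower calls made up 2.62%, 10.6% and 3.82% of all genes in that order. The 8 cardiomyocyte markers gave 1 lower call for TAC in Con, 5 for TAC in ONOFF and 5 for genotype in TAC mice, and their summed values ranged from 2413340 to 3928230 in Con Sham, 2180580 to 4217730 in Con TAC, 2439460 to 3623580 in ONOFF Sham and 1810440 to 2562840 in ONOFF TAC. The 8 fibroblast markers gave 3, 6 and 5 higher calls in those comparisons, and summed to 54735 to 85265, 58137 to 114982, 63822 to 83913 and 92159 to 139824 in the same order of conditions. For TAC in Con, the cardiomyocyte call (Pln) and the 3 fibroblast calls (Lum, Postn and Col1a2) were all lost without the 5 libraries that stand apart, where Pln was at log2 -0.18 and Col1a2 at 0.27 (-0.26 and 0.53 with them). Without the 3 libraries with many zeros all 4 were lost as well, as were Pln, Postn and Col1a2 without the 2 poor in Xist, and Col1a2 in 12 of 40 omissions. With quantile normalization the lower call of Myh6 for TAC in ONOFF was lost, at log2 -0.06 (-0.46 otherwise), and so was that for genotype in TAC mice, at -0.25 (-0.50). That of Myl2 for TAC in ONOFF held at -0.27 (-0.47). The calls of Myh6, Myl3 and Col1a1 for genotype in TAC mice were lost with only the compared groups, and those of Pln and Col1a2 for TAC in Con as well. Those 2 calls for TAC in Con were also lost with quantile normalization, and that of Col1a2 without a filter on low values. For genotype in TAC mice, omissions of 1 library lost the calls of Myl3 (10 of 40), Col1a1 (9), Myh6 (2) and Myl2 (1). The adjusted p by limma then reached 0.0963, 0.0813, 0.0602 and 0.0505 in that order. Of the 9 markers of mural cells, Abcc9, a potassium channel subunit of pericytes that cardiomyocytes also use, was lower in all 4 comparisons (log2 -0.36, -0.37, -0.47 and -0.49; adjusted p = 0.0246, 0.00578, 0.0379 and 0.00166, limma) in the order TAC in Con, TAC in ONOFF, genotype in sham and genotype in TAC. The first of these calls was lost in 4 of 40 omissions, without the 2 libraries poor in Xist and without all 5 that stand apart. The sham call was lost in 12 of 40 omissions, without a filter, with quantile normalization, with the replicate block, without the 3 libraries with many zeros and without all 5. Kcnj8, its partner channel, was lower for genotype in TAC mice (-0.30, adjusted p = 0.00714, limma), whereas Cspg4, the pericyte proteoglycan NG2, was higher with TAC in ONOFF (0.55, adjusted p = 9.9e-07) and for genotype in TAC mice (0.34, adjusted p = 0.00422, limma). Pdgfrb, a mural receptor, was higher with TAC in ONOFF (0.23, adjusted p = 0.032, limma; lost in 8 of 40 omissions and with quantile normalization).

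The mural list summed to 49902 to 62562 in Con Sham, 45925 to 65559 in Con TAC, 46949.8 to 57709 in ONOFF Sham and 40792 to 53439 in ONOFF TAC. Of 7 macrophage markers 1 was called, Adgre1, higher with TAC in ONOFF (0.64, adjusted p = 0.0018, limma), where 21.2% of all genes were called. The macrophage list had sums of 3764 to 8121, 4749 to 8589.7, 3539.6 to 8037 and 5276 to 9155. The 4 erythroid and 5 mesothelial and epicardial markers gave no call in the 4 comparisons. Their sums in the same order were 63360.4 to 172690, 57969 to 256940, 55183 to 457587 and 78481 to 182404 for the erythroid list, and 208 to 857, 246 to 531, 177 to 487 and 169.7 to 935 for the mesothelial and epicardial list. No marker of these lists was at 0 in all libraries. The part of these cell types in the Angpt1 values was not tested.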

How the data were processed

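The authors deposited a single file of normalized counts (a signal scaled per library), 22676 genes by 40 libraries. Per the submitters' processing notes, FastQC 0.11.7, MultiQC 0.8, STAR 2.7.3a, Salmon, R 4.3.1 and DESeq2 were used, with the build GRCm39; per the labels, RNA libraries were stranded. No raw counts were used here, so depth is unknown, counting intervals are not given, and the number of libraries limits the precision. Columns were matched to samples by library name, and 0 columns belonged to other samples.

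Values were transformed as log2(value + 1) and kept where 5 or more libraries reached 10 (16395 genes), so fold changes are on that scale and understate those of low genes. limma 3.58.1 in R 4.3.3 (with the package data.table, version 1.17.8) fitted 8 group means with trend and robust options. The 9 contrasts were TAC in each genotype, genotype in each surgery and their interaction, averaging the sexes, and 4 sex differences. Two-sided p-values were adjusted by Benjamini-Hochberg within each contrast, with a threshold of 0.05, and libraries said to lie below or above a mean were set against the reference condition of their own sex. The text names the 10 genes in every contrast, up to 4 called genes per other list and contrast with the smallest p, and the 3 genes most correlated with each of the 10, leaving out predicted genes. The members and lists were chosen with earlier results of these data known. Normal values simulated with each gene's mean and SD recovered 76% to 78% of 100 genes planted at a log2 change of 1 and 43% to 57% at 0.5, among 16395 genes, over the 4 comparisons of TAC and genotype. Alternatives included trimmed-mean (TMM) rescaling. Another took the number after the letter F in each library name as a random block, which the reported fit did not use. The labels do not say what that number marks. Some of the numbers occur in a single condition only, so the block is partly tied to condition. Correlations and promoters were computed in Python 3.11.15 with pandas 2.3.3 and numpy 2.4.6, and figures with matplotlib 3.10.9. Same-numbered libraries were not paired, as replicate numbers are not stated to mark a shared litter or day.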

Additional observations from a re-analysis of the deposited data

Results flagged for a closer look

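Of 80 groups of 5 libraries (10 genes in 8 groups), 5 held a library far from the other 4, where chance gives about 1 in 20. Kdr was 13236 in Con Sham F replicate 1, with the next at 9999. Tek was 2067 in ONOFF Sham M replicate 4, with the next at 2642. Tie1 was 6441 in Con TAC M replicate 1, with the next at 4609, and Vwf was 4567 in ONOFF TAC F replicate 1, with the next at 2486. Angpt2 was 349 in Con Sham F replicate 5, one of the libraries with many zeros, with the next at 214.

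In 2 list genes the effect of TAC differed between the genotypes by the interaction test of limma. The log2 change of Npr3 was larger in ONOFF by 0.85 (adjusted p = 0.0292, limma), and the call was lost without ONOFF TAC F replicate 4 or 5, ONOFF TAC M replicate 3 or Con TAC M replicate 3, at an adjusted p of 0.0544, 0.0504, 0.054 and 0.0548 by limma. That of Postn, a matrix protein of activated fibroblasts, was larger by 1.30 (adjusted p = 0.0474, limma), and the call was lost in 27 of 40 omissions of 1 library, with adjusted p up to 0.0861. That call was also lost without a filter on low values, with the replicate block and with the library-name number as a random block.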

How the results depend on the processing

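In all, 13 alternatives and the omission of each of 40 libraries in turn were run for the 10 genes. The 3 calls of Angpt1 held under every one of them except TAC in Con without all 5 libraries that stand apart. Omitting 1 library gave adjusted p from 0.0013 to 0.0103 for TAC in Con, 8.62e-06 to 0.000194 for TAC in ONOFF and 0.00263 to 0.0285 for genotype in TAC mice by limma. The number of the 10 genes called for TAC in Con was 2 without the 2 libraries poor in Xist (Pecam1 and Angpt1) and 1 without all 5 (Pecam1). For TAC in ONOFF it was 4 with library weights (Flt1, Vegfa, Angpt1 and Angpt2), 2 with only the compared groups, and 1 to 2 with 1 library left out (2 without ONOFF TAC M replicate 5). Replicate numbers did not pair the libraries: deviations of 140 same-numbered pairs correlated at -0.19 to 0.24 (median 0.004), against a median of 0.002 over 560 other pairs. With the replicate number as a block, Angpt1 kept its calls, with log2 -0.96 for TAC in Con (adjusted p = 0.0062, limma), and 1, 1, 0, 1 and 0 of the 10 genes were called as before.

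Directions turned only in estimates that no setting called. For Pecam1, genotype in TAC was 0.0224 with quantile normalization and 0.0735 both without the 2 libraries poor in Xist and without all 5, with single omissions giving -0.0604 to 0.0442, and TAC in ONOFF gave -0.0092 to 0.0358 over omissions. For Cdh5, TAC in ONOFF was -0.01 with TMM, -0.0025 with quantile normalization, -0.005 with weights and -0.0054 with the library-name number as a random block (omissions -0.0358 to 0.0513), and genotype in TAC was 0.0338 without the 2 and without the 5 (omissions -0.1403 to 0.0108). The Kdr interaction was 0.0268 without the 3 libraries with many zeros, 0.0152 without the 2 and 0.0801 without the 5 (omissions -0.0899 to 0.0251). TAC in Con was -0.0093 without the 3 and -0.0439 without the 5 for Flt1, and -0.0211 without the 2 and -0.0527 without the 5 for Tie1. The Tie1 interaction gave -0.0082 to 0.0837 over omissions, Vwf -0.2115 to 0.0024 for TAC in ONOFF and -0.1383 to 0.0756 for genotype in sham. The Vegfa interaction was -0.022 with weights (omissions -0.0485 to 0.0819), and that of Angpt2 0.05 and 0.0221 without the 2 and the 5 (omissions -0.1674 to 0.0471).

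The count over all genes moved by over 1.5 times in places. It was 495, 581 and 598 for TAC in Con (948 in the reported fit) with only the compared groups, without the 2 and without the 5. With weights it was 5266 for TAC in ONOFF (3480) and 2355 for genotype in TAC (1306). For genotype in sham (23) it was 13 without a filter, 47 with weights, 12 with only the compared groups, 14 with the replicate block, and 2 and 4 without the 3 and the 5. The interaction count (73) was 30 without a filter, 107 at a mean of at least 50, 120 with quantile normalization, 449 with weights, 32 with the random block, and 128, 149 and 440 without the 3, the 2 and the 5. The sex difference of genotype in sham had 1 call with either block and 0 otherwise. For the list genes, 64 calls were followed, those with the smallest p up to 4 per list and contrast. Weaker calls of the same lists were left out of this count. Of the 64, 20 were lost in some omission of 1 library and 25 in some other setting, and 0 reversed. The cause of these shifts was not tested.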

Other observations

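A list of 18 genes of the hypoxia response, of which 17 were tested, gave 1 higher call for TAC in Con, 5 higher and 2 lower calls for TAC in ONOFF, none for genotype in sham, and 1 higher and 1 lower for genotype in TAC mice. Among all genes, the shares called in either direction were 5.78%, 21.2%, 0.14% and 7.97% in that order. P4ha1, a collagen prolyl hydroxylase, rose 1.49-fold with TAC in Con (adjusted p = 0.00174, limma; lost without all 5 libraries that stand apart) and 1.57-fold in ONOFF (adjusted p = 5.39e-05, limma). Bnip3, a mitophagy gene, rose 1.51-fold in ONOFF (adjusted p = 0.000174, limma), and Ero1a, an oxidase of the endoplasmic reticulum, 1.32-fold (adjusted p = 0.0103, limma). Ankrd37 fell by a log2 change of 0.53 with TAC in ONOFF (adjusted p = 0.0385, limma) and was lower by -0.62 in ONOFF than in Con after TAC (adjusted p = 0.0335, limma); each call was lost in 11 of 40 omissions, the first also with the library-name number as a random block and the second with only the compared groups. Bnip3 was higher by 0.38 in the last comparison (adjusted p = 0.0339, limma), a call lost in 11 of 40 omissions and, at 0.31, without the 2 libraries poor in Xist and without all 5 that stand apart. The list's median log2 change was 0.04 for TAC in Con, 0.17 for TAC in ONOFF, -0.06 for genotype in sham and 0.06 for genotype in TAC mice, beside 0.02, 0.01, 0.01 and -0.0007 over all genes.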
